A study of Mus musculus with 3 samples.

Results

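The genes described here are 9 members of the epidermal growth factor (EGF) system, taken from the 31054 features that the mouse lung libraries list: the ligand genes Areg (amphiregulin), Ereg (epiregulin), Hbegf (heparin-binding EGF-like growth factor), Tgfa (transforming growth factor alpha), Btc (betacellulin) and Nrg1 (neuregulin 1), and the receptor genes Egfr, Erbb2 and Erbb3. They were chosen from their UMI counts in these same libraries, so their levels and differences below are descriptions and carry no test. Lung cells were profiled with 10x 3' single-cell RNA sequencing in 3 libraries, 1 per group: irradiated mice with a conditional knockout that also received a drug (called the KO drug library), irradiated wild-type (WT) mice, and non-irradiated wild-type mice, the control group. Both irradiated groups share the irradiation, and the KO drug group differs from irradiated wild type by genotype and drug at once, which cannot be told apart. The labels name neither the knocked-out gene, the Cre driver nor the drug, so the targeted gene was not checked, and the sources used here do not give the radiation dose, the time after it, or the age and number of mice.

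EGF-family ligands are made as membrane-anchored precursors that proteases such as ADAM17 shed, with the iRhom proteins (Rhbdf1, Rhbdf2) as partners of ADAM17. Amphiregulin, epiregulin, HB-EGF, TGF-alpha and betacellulin bind EGFR, and neuregulin 1 binds ErbB3 and ErbB4, so the group is wider than EGFR ligands alone. ErbB2 has no known ligand of its own and ErbB3 has an impaired kinase, so both signal as partners. Amphiregulin from regulatory T cells and group 2 innate lymphoid cells (ILC2) is known for its part in lung repair, where EGFR signalling acts on epithelial and mesenchymal cells.

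In GENCODE vM21 on GRCm38, Ereg (ENSMUSG00000029377, chr5:91074622-91093646, plus strand), Areg (ENSMUSG00000029378, chr5:91139599-91148432, plus strand) and Btc (ENSMUSG00000082361, chr5:91357261-91402994, minus strand) are neighbours on chromosome 5. The end of Ereg lies 45953 bases before the start of Areg, and the end of Areg lies 208829 bases before the lower coordinate of Btc. Tgfa lies at chr6:86195223-86275719, Egfr at chr11:16752203-16918158, Erbb2 at chr11:98412470-98437716, Erbb3 at chr10:128567523-128589652 and Nrg1 at chr8:31814551-32884029. RefSeq promoters on GRCm38.p6 matched 5 of the 9 members by symbol (Areg, Tgfa, Btc, Egfr, Erbb2). The 250 bases before the start of Areg, chr5:91139349-91139598 on the plus strand, and of Btc, chr5:91402995-91403244 on the minus strand, are shown because Areg had the most UMIs of the 9 genes in lymphocytes and its neighbour Btc had almost none. Capitals mark TGACG on either strand, the core of the cAMP response element.
Areg: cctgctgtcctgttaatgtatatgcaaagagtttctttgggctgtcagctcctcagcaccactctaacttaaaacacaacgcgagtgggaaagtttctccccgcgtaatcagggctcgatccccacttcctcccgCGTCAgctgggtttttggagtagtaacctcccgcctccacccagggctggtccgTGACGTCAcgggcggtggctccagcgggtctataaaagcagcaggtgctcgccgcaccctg
Btc: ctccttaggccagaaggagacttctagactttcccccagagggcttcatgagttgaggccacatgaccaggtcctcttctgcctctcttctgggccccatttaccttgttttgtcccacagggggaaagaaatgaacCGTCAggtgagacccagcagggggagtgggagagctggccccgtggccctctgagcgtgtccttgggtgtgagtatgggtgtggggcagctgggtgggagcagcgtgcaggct
The Areg window holds this core at positions -115, -61 and -58 counted to the start site, and the copies at -61 and -58 overlap as the full palindrome TGACGTCA. The Btc window holds a single core, at -113. Among 32851 promoter windows of the same length, 17.8% hold TGACG and 1.55% hold TGACGTCA on either strand. Neither window holds the AP-1 motif TGANTCA (6.75% of windows), the GATA motif AGATAA (9.99%) or the NFAT motif GGAAAA (20.4%). These matches describe letters and show no binding.

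Cells with at least 250 genes and at most 15% mitochondrial UMIs were kept, which left 9886 KO drug, 5805 irradiated WT and 13091 non-irradiated WT cells with medians of 6070, 5706 and 4899 UMIs. The libraries totalled 76667310, 45800421 and 85984536 UMIs in the same order, and pairs of libraries shared 25 to 46 cell barcodes. By UMIs of Xist and of Y-linked genes, 1595 irradiated WT cells (27.5%) were of male type, against 27 KO drug and 1 non-irradiated WT cells. Male-type cells are therefore largely in 1 library. Of 11 main ratios between libraries, the 5 that moved beyond counting error in female-type cells are given both ways. Of 43 other ratios 12 also moved, and most of these are given 1 way only. Cells were sorted into 7 gates by UMIs of a few genes: Trdc with Cd3e (the γδ T-cell receptor), Foxp3 (regulatory T cells), Gata3 without Cd3 genes, basophil or mast genes, Csf1r (macrophages and monocytes), Col1a1 with Col1a2 (fibroblasts) and Epcam without Ptprc (epithelium). B cells, with Ms4a1 and Cd79a but no Cd3e, served for comparison. The values are UMIs summed over a gate and scaled to the gate's total UMIs on the usual CPM scale, and brackets hold 95% intervals, exact Poisson for CPM, exact conditional for CPM ratios and exact binomial for shares of cells. These intervals cover counting error within a library only. Because each group is a single library, differences between animals could not be estimated and groups were not tested against each other. CPM from 3' UMIs count molecules and are not scaled by transcript length.

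Most gates carried their own markers, which summed in the KO drug, irradiated WT and non-irradiated WT libraries to 4517, 4205 and 3489 CPM in Foxp3 cells, 34106, 36991 and 28188 CPM in fibroblasts and 182669, 180833 and 221439 CPM in epithelial cells. The Foxp3 gate also held fibroblast markers at 257, 87.2 and 7405 CPM and epithelial markers at 338, 339 and 2496 CPM, both highest in non-irradiated WT. The Gata3 gate was mixed: the ILC2 markers summed to 1163, 1648 and 520 CPM in the same order, NK-cell markers to 5542, 5102 and 1598 CPM, and endothelial markers to 407, 172 and 4762 CPM. Epithelial markers there summed to 13251, 3685 and 3298 CPM and fibroblast markers to 4849, 268 and 3172 CPM, so that the KO drug gate held more of both than the irradiated WT gate. Ptprc, the leukocyte antigen CD45, was found in 85.6%, 91.8% and 48.1% of its cells, so it is called the Gata3 gate and not ILC2. The Csf1r gate held epithelial markers at 12955, 36144 and 17702 CPM beside its own at 26284, 29165 and 9960 CPM. In the Trdc gate, epithelial markers summed to 488, 220 and 5138 CPM, fibroblast markers to 900, 519.9 and 3818 CPM and Csf1r-gate markers to 276, 133 and 1013 CPM, against its own markers at 4665, 4581 and 5180 CPM. Immediate-early and heat-shock genes, which cell dissociation is known to induce, summed to 5657, 5552 and 9424 CPM in the Trdc gate and to 7740, 7099 and 13974 CPM in the epithelial gate, lower in both irradiated libraries. The part of these differences in the results was not tested.

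Over all kept cells, Areg had the highest CPM of the 9 genes in each library. Whole-library Areg was 140.9 CPM in the KO drug library, 165 CPM in irradiated WT and 57.7 CPM in non-irradiated WT, and 10.3%, 11.9% and 5.26% of kept cells held an Areg UMI. Hbegf was lower in both irradiated libraries, at 24.0, 33.2 and 55.7 CPM. Ereg was at 5.45, 10.1 and 7.72 CPM, Nrg1 at 3.096, 5.89 and 4.78 CPM, Tgfa at 2.88, 3.81 and 2.73 CPM and Btc at 0.835, 0.673 and 2.63 CPM. Egfr stood at 6.22, 5.80 and 14.6 CPM, Erbb2 at 2.18, 2.23 and 6.41 CPM and Erbb3 at 2.91, 3.71 and 3.58 CPM. Ligand Areg was thus higher, and Hbegf, Btc, Egfr and Erbb2 were lower, in both irradiated libraries than in the non-irradiated one, whose cell makeup also differs.

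Cells of the Trdc gate held the largest share of all Areg UMIs in both irradiated libraries, and epithelial cells held it in the non-irradiated library. Of 10465 KO drug, 7117 irradiated WT and 4763 non-irradiated WT Areg UMIs, the Trdc gate held 46.6%, 38.5% and 22.8%. Epithelial cells held 15.4%, 19.7% and 34.0%, and the Csf1r gate 1.88%, 2.29% and 16.4%. The Foxp3 gate held 3.30%, 7.07% and 1.58%, and the Gata3 gate 3.11%, 4.12% and 6.53%. Trdc cells themselves were 12.8%, 11.3% and 2.35% of kept cells. Cells can stand in more than 1 gate, so these shares are not parts of a whole.

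**Figure D1:**
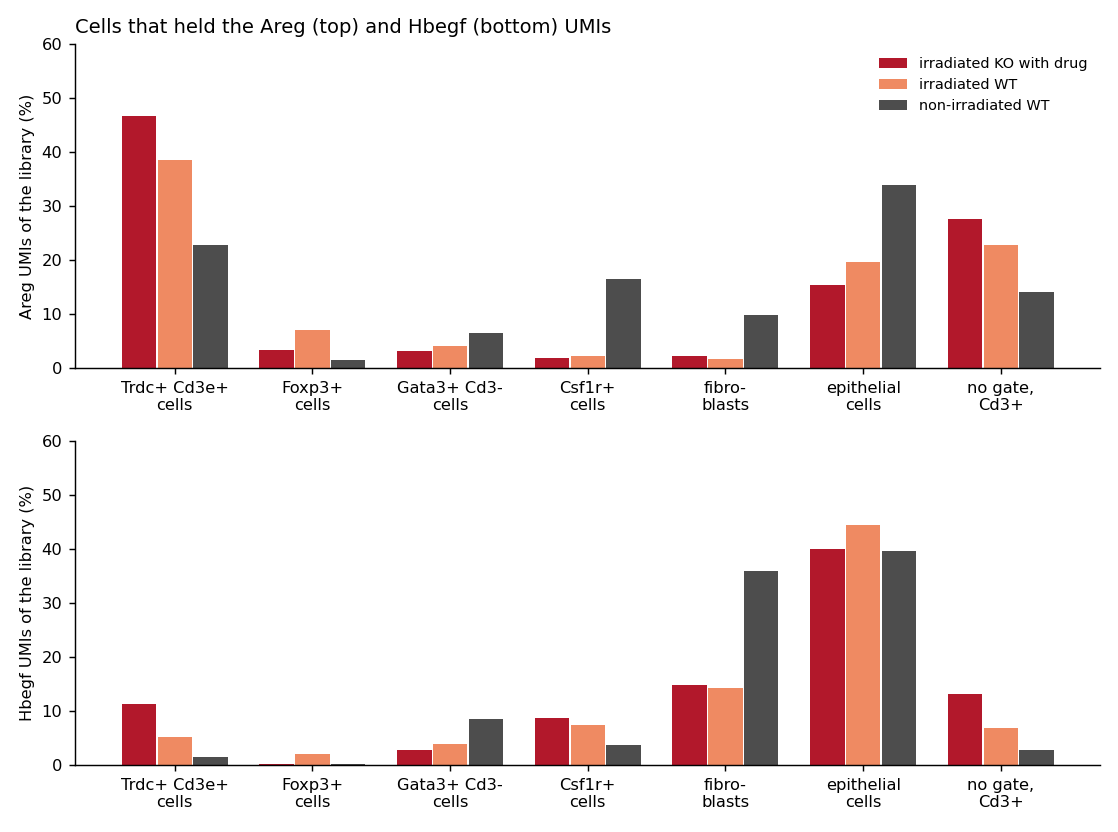
Share of a library's Areg UMIs (top) and Hbegf UMIs (bottom) held by the cells of each gate, in percent, with 1 bar per library. The Trdc gate held 46.6% of Areg UMIs in the KO drug library, 38.5% in irradiated WT and 22.8% in non-irradiated WT, while epithelial cells and fibroblasts held most Hbegf UMIs.

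Within the Trdc gate the level of Areg differed by less than 1.5-fold between libraries, whereas the gate's share of kept cells differed far more. Areg stood at 503 CPM (489 to 518) in 1263 KO drug cells, 572 CPM (551 to 594) in 653 irradiated WT cells and 438 CPM (412.7 to 465.3) in 308 non-irradiated WT cells. The irradiated WT level was 1.31 times (1.22 to 1.40) the non-irradiated one, and the KO drug level was 0.880 times (0.839 to 0.922) the irradiated WT one. Areg UMIs were found in 27.6%, 28.9% and 29.6% of these cells, shares whose intervals overlap. After thinning every cell to 1000 UMIs the shares were 14.9%, 15.5% and 15.9%. For comparison, B cells, which should lack Areg, held a UMI in 0.915%, 0.267% and 1.56% of cells at medians of 6061, 5040 and 4796 UMIs, against 6454, 6159 and 6565 UMIs in the Trdc gate.

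Amphiregulin transcripts were concentrated in few Trdc cells. The median Areg-positive cell held 4 UMIs in every library, while 123 KO drug, 69 irradiated WT and 25 non-irradiated WT cells held 10 or more, up to 202, 230 and 196 UMIs. The 3 highest cells held 11.6%, 15.4% and 29.3% of the gate's Areg UMIs. The log2 ratio of irradiated WT to non-irradiated WT, 0.38, was 0.54 without the highest cell of each library. It was 0.09 with the cells of highest doublet score removed, a share set in advance. Among female-type cells Areg was 513, 490.0 and 349 CPM, so the KO drug level was then above the irradiated WT level. Within irradiated WT it was 732 CPM (693 to 773) in 259 male-type and 490.0 CPM (461 to 521) in 289 female-type cells. Neither the sex difference nor its part in the group values was tested.

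**Figure D2:**
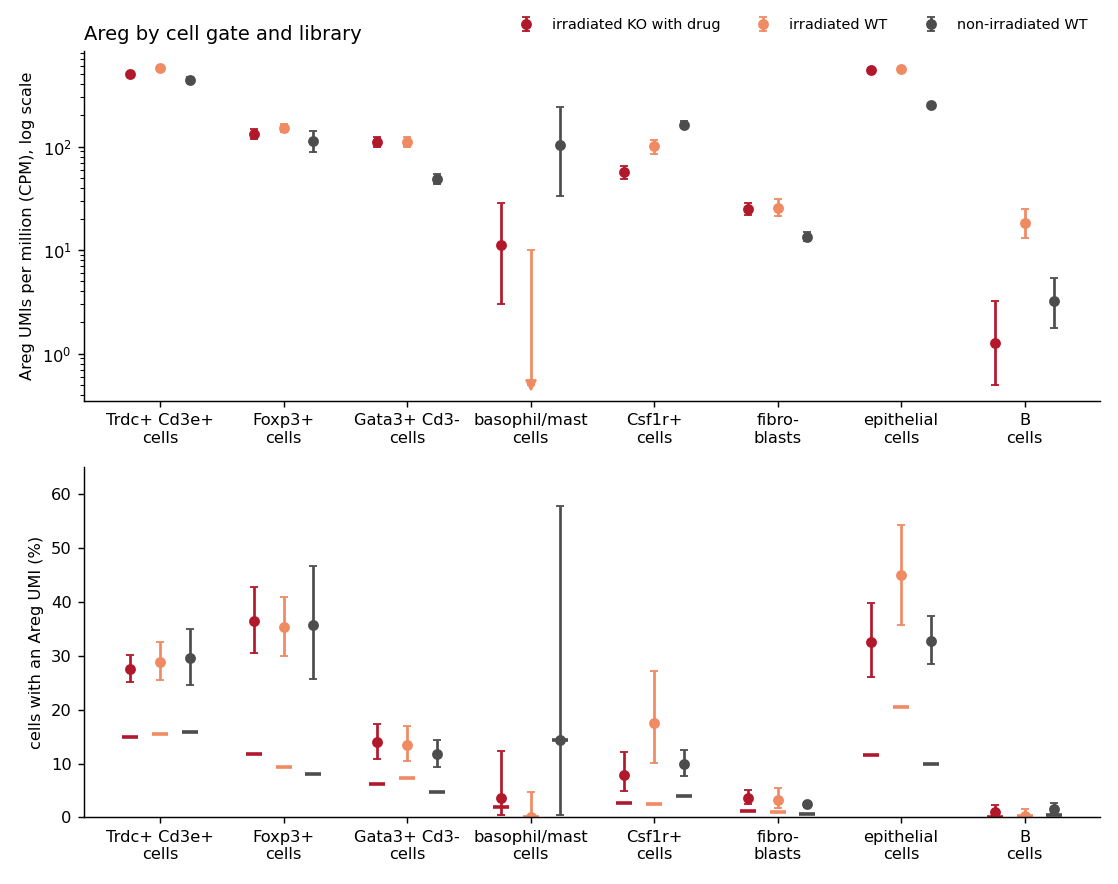
Areg level in CPM on a log scale with 95% Poisson intervals (top), and percent of cells with an Areg UMI with 95% binomial intervals (bottom), by gate, for the KO drug, irradiated WT and non-irradiated WT libraries. Short bars in the lower panel give the percent after thinning to 1000 UMIs, and the arrow marks 0 UMIs. Trdc and epithelial cells stand highest, at 254 to 572 CPM. B cells, at 1.26 to 18.4 CPM, stand lowest in the KO drug and non-irradiated WT libraries, and basophil/mast cells, with 0 UMIs, in irradiated WT.

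Areg-positive Trdc cells more often carried Il17a, the cytokine of the IL-17 type of γδ T cells. In thinned cells, Il17a was found in 84.0% of Areg-positive and 50.5% of Areg-negative KO drug cells, in 76.2% and 49.5% of irradiated WT cells, and in 91.8% and 53.3% of non-irradiated WT cells. Il2ra, the high-affinity IL-2 receptor chain, was found in 32.5% against 19.9%, 35.6% against 22.4% and 30.6% against 16.2% in that order. Trdv4, a γδ receptor segment, ran alike, at 14.4% against 8.09%, 29.7% against 10.6% and 18.4% against 10.0%. Il7r, the IL-7 receptor, did not: it was at 29.8% against 27.1% in KO drug, 42.6% against 34.6% in irradiated WT and 12.2% against 24.3% in non-irradiated WT cells. These shares rest on 188, 101 and 49 Areg-positive cells, and the marker genes among them were picked after their values were seen.

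Among receptors of cues known to induce amphiregulin in lymphocytes, 11 of 12 were measured in Trdc cells, and 2 were at least 2-fold higher in irradiated WT than in non-irradiated WT, with none lower. Of all 7922 genes measured there, 8.38% differed by as much, 72 higher and 592 lower in irradiated WT. The 2-fold limit is taken after adding 5 CPM to both libraries, in either direction, with 30 or more UMIs in the higher one, and a gene past it is called apart below. Tnfrsf4 (OX40) was at 57.8 against 9.29 CPM and Il1rl1, the IL-33 receptor, at 15.5 against 2.42 CPM. Their median log2 ratio (1 CPM added) was 0.50, against 0.07 over all genes tested. In KO drug against irradiated WT cells, 1 of 11 was at least 2-fold lower, against 1.37% of all genes tested, Il1rl1 at 2.27 against 15.5 CPM, and Tnfrsf4 was at 31.5 against 57.8 CPM. The median there was -0.46, against 0.00 over all genes. Cells also in the Foxp3 gate were 0.871% of KO drug, 3.52% of irradiated WT and 0.649% of non-irradiated WT Trdc cells. Their part in the Tnfrsf4 and Il1rl1 values was not tested. Thinned, Il1rl1 was found in 0 of 188, 0 of 101 and 0 of 49 Areg-positive Trdc cells in that order. Of the EGFR response list, 3 of 6 measured genes were at least 2-fold lower in irradiated WT than in non-irradiated WT Trdc cells, led by Ccnd1 (cyclin D1) at 7.73 against 41.2 CPM and Ier3 at 35.3 against 99.4 CPM, with a list median of -0.89. Of the immediate-early and heat-shock list 7 of 12 were lower there. Most genes apart in this comparison were lower in irradiated WT, and the epithelial, fibroblast and Csf1r-gate markers in the gate were lower there too, whose part in these counts was not tested.

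Of the 9 members only Areg and Hbegf reached that depth in Trdc cells, and neither was apart in either comparison. The members were chosen on these same contrasts, so nothing is read from such counts here or below. The comparisons share the irradiated WT library.

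Foxp3-gated cells held Areg at a lower level than Trdc cells, in a larger share of cells as sequenced and in a smaller share at equal depth. Areg was at 133 CPM (119.6 to 148) in 252 KO drug, 152 CPM (139 to 166) in 303 irradiated WT and 114 CPM (89.6 to 143) in 87 non-irradiated WT cells, found in 36.5%, 35.3% and 35.6% of them. Thinned, the shares were 11.7%, 9.30% and 8.14%, below those of thinned Trdc cells in each library. Fibroblast and epithelial markers in the gate were highest in non-irradiated WT. Cells with a Trdc UMI numbered 13 in KO drug, 26 in irradiated WT and 3 in non-irradiated WT. They held 38 of 345, 207 of 503 and 1 of 75 of the gate's Areg UMIs in that order. The part of these markers, or of these cells alone, in the Areg values was not tested. The ratio of KO drug to irradiated WT was 0.875 (0.761 to 1.006), an interval that includes no difference, and that of irradiated WT to non-irradiated WT was 1.34 (1.05 to 1.73). Both directions turned over in cells of this gate alone: there the log2 ratios were 0.49 and -0.55, against -0.19 and 0.42 in all Foxp3 cells. Male-type irradiated WT cells of the gate held 305 CPM (79 cells) and female-type ones 107 CPM (192 cells).

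Tnfrsf4 was found in 62.1% of Areg-positive and 44.8% of Areg-negative KO drug Foxp3 cells, 53.6% and 45.8% of irradiated WT and 57.1% and 36.7% of non-irradiated WT cells, from 29, 28 and 7 Areg-positive cells. Of 8 markers, 6, 5 and 4 had a larger share in Areg-positive cells in that order, and 2, 3 and 4 a smaller one. Of 12 cue receptors, 10, 7 and 3 had a larger share and 2, 3 and 6 a smaller one. Cd4 had a smaller share in each library. Intervals were apart for none of the genes with a larger share. Of the cue receptors, Il2ra was at least 2-fold higher in irradiated WT than in non-irradiated WT Foxp3 cells, at 232 against 92.6 CPM, 1 of 9 measured against 11.7% of all genes. In KO drug against irradiated WT cells no cue receptor of 10 was apart, and Il2ra was at 134 against 232 CPM. Hbegf was the member apart in the gate, lower in the KO drug library (5 UMIs, 1.93 CPM) than in irradiated WT (30 UMIs, 9.08 CPM), 1 of 2 members tested against 1.71% of all genes. That rests on 30 UMIs in 14 cells, and without the highest cell the levels were 1.55 and 5.19 CPM, which is not apart. In irradiated WT against non-irradiated WT, 0 of 1 members tested were apart, against the same 11.7%.

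In the Gata3 gate Areg was at 109.9 CPM (98.3 to 123) in 466 KO drug cells, 110.3 CPM (98.1 to 124) in 451 irradiated WT cells and 49.0 CPM (43.7 to 54.8) in 674 non-irradiated WT cells. Both irradiated libraries therefore stood above the control, and the irradiated WT to non-irradiated WT ratio was 2.25 (1.91 to 2.65), while the KO drug to irradiated WT ratio was 0.996 (0.848 to 1.17). The KO drug gate held epithelial markers at 13251 CPM and fibroblast markers at 4849 CPM, against 3685 and 268 CPM in irradiated WT, and their part in either ratio was not tested. The shares of cells with a UMI were close, at 14.0%, 13.5% and 11.7%. Among Gata3-gated cells that also held Ptprc, Areg was at 114 CPM in irradiated WT and 103 CPM in non-irradiated WT, a log2 ratio of 0.14 in place of 1.16. That choice of cells was made after the data were seen. The ratio also fell below 2 with stricter gates (a log2 ratio of 0.79) and with equal weight per cell (0.58).

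Most ILC2 marker genes were found in a larger share of Areg-positive than of Areg-negative cells of the Gata3 gate. That was so for 7 of 9 markers in the KO drug library and for 9 of 9 in irradiated WT and in non-irradiated WT, and the 95% intervals of the shares were apart for 5, 5 and 2 of them. Klrg1 and Il13 were the exceptions, found in 0 of 28 Areg-positive KO drug cells, against 6.12% and 0.706% of Areg-negative ones. Rora, a transcription factor needed for ILC2, was found in 89.3% against 24% of KO drug cells, 90.9% against 26.1% of irradiated WT cells and 80.7% against 17.1% of non-irradiated WT cells, all thinned. Il5, an ILC2 cytokine, was at 28.6% against 4%, 45.5% against 2.16% and 16.1% against 3.81%. Il1rl1 was at 28.6% against 3.06%, 21.2% against 3.84% and 35.5% against 2.86%, from 28, 33 and 31 Areg-positive cells. Some differences were small, such as that of Arg1 at 6.45% against 3.81% in non-irradiated WT. The genes given with values were again picked after those were seen.

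Cue receptors stood higher in irradiated WT than in non-irradiated WT Gata3-gated cells in 7 of 9 measured cases at 2-fold or more, with none lower, where 29.6% of all 10357 genes tested were apart, 779 higher and 2288 lower. The receptors' median log2 ratio was 1.56, against -0.34 over all genes. Il18r1 was at 92.3 against 17.6 CPM and Il18rap at 225 against 46.6 CPM, the chains of the IL-18 receptor, which NK cells also carry. Of the shedding list 1 of 7 was higher and 4 were lower, with Rhbdf2 at 7.16 against 44.6 CPM and Rhbdf1 at 2.64 against 18.9 CPM. Ptprc was found in 91.8% of irradiated WT and 48.1% of non-irradiated WT cells of this gate. The part of that difference in these counts was not tested. Of the 3 members tested, Areg was apart as higher, and Hbegf and Erbb2 as lower. In KO drug against irradiated WT cells 1 of 3 members tested, Ereg, was apart as higher, against 7.92% of all genes, and no cue receptor of 8 was.

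Basophil and mast cells had almost no Areg. The KO drug library held 4 Areg UMIs in 2 of 56 cells, and irradiated WT held 0 in 75 cells, where 3 UMIs would be 8.10 CPM. Non-irradiated WT had 5 UMIs in 1 of only 7 cells. None of the 9 members reached 30 UMIs there, where 18.9% of all genes tested were apart in KO drug against irradiated WT. The gate itself differed in makeup, with basophil markers at 15428 and 5107 CPM and mast-cell markers at 21439 and 36222 CPM in the KO drug and irradiated WT libraries.

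Csf1r-gated cells held Areg at 56.7 CPM (49.1 to 65.2) in 240 KO drug cells, 100.3 CPM (85.5 to 117) in 86 irradiated WT cells and 163 CPM (152 to 175) in 628 non-irradiated WT cells. Here non-irradiated WT stood highest and KO drug lowest, with ratios of 0.565 (0.457 to 0.6997) for KO drug to irradiated WT and 0.615 (0.517 to 0.729) for irradiated WT to non-irradiated WT. Few cells carried it: the 3 highest cells held 71.6%, 75.5% and 50.3% of the UMIs. Much of it lay in cells that also held genes of other types, with 47.7%, 38.0% and 20.8% of Areg UMIs in Epcam-positive cells and 43.7%, 3.07% and 29.8% in Trdc-positive cells. Among Csf1r cells without Epcam or Cd3e the log2 ratios were -1.86 and 0.18, in place of -0.81 and -0.69, so the direction against the control turned over. No member was apart of 3 tested in KO drug against irradiated WT (5.08% of all genes) or of 5 tested in irradiated WT against non-irradiated WT (14.0%).

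In fibroblasts Areg was low, at 24.99 CPM (21.9 to 28.4) in 963 KO drug cells, 25.7 CPM (21.2 to 30.8) in 424 irradiated WT cells and 13.5 CPM (12.3 to 14.8) in 3950 non-irradiated WT cells. Only 3.63%, 3.30% and 2.41% of them held a UMI. Cells that also held Trdc were 6.02%, 4.01% and 1.95% of the gate and carried 75.5%, 38.6% and 34.4% of its Areg UMIs. With the cells of highest doublet score removed, the log2 ratio of KO drug to irradiated WT was -1.44 in place of -0.04. That of irradiated WT to non-irradiated WT was 1.63 in place of 0.88.

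Epithelial cells held Areg at levels near those of Trdc cells in the irradiated libraries. The level was 544 CPM (518 to 571) in 190 KO drug cells, 559 CPM (530.3 to 589) in 118 irradiated WT cells and 254 CPM (242 to 266) in 448 non-irradiated WT cells. The irradiated libraries did not differ beyond counting error, with a ratio of 0.973 (0.905 to 1.05), and irradiated WT stood 2.20 times (2.05 to 2.37) above non-irradiated WT. Areg UMIs were in 32.6%, 44.9% and 32.8% of cells, or 11.6%, 20.5% and 9.91% after thinning. Epithelial cells were deeper than B cells, at medians of 9163, 12764 and 10284 UMIs.

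The kinds of epithelial cells also differed between libraries. Sftpc, the surfactant gene of alveolar type 2 cells, was at 34169 and 27715 CPM in the KO drug and irradiated WT libraries and at 98179 CPM in the non-irradiated one. Without the highest cell of each library the irradiated WT and non-irradiated WT levels of Areg were 434 and 233 CPM, a ratio under 2-fold. With the cells of highest doublet score removed these levels were 564 and 124 CPM, with 578 of 1619 Areg UMIs left in the non-irradiated gate. In thinned cells the log2 ratio of KO drug to irradiated WT was -1.09 in place of -0.04.

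In every library, Areg-positive epithelial cells more often carried the keratins Krt8 and Krt18. Thinned, Krt8 was found in 72.7% of Areg-positive against 25.2% of Areg-negative KO drug cells, in 62.5% against 23.7% of irradiated WT cells and in 53.5% against 14.3% of non-irradiated WT cells. Krt18 was at 63.6% against 24.6%, 62.5% against 35.5% and 55.8% against 14.3%. Cldn18, a lung tight-junction claudin, followed at 22.7% against 12.6%, 33.3% against 17.2% and 51.2% against 24.0%. Sftpc did not, at 22.7% against 23.4%, 12.5% against 24.7% and 72.1% against 80.8%. Of 9 epithelial markers, 6, 6 and 7 had a larger share in Areg-positive cells in that order, with intervals apart for 2, 1 and 5. Foxj1 was also higher, in 4 of 22 against 8 of 167, 6 of 24 against 8 of 93 and 5 of 43 against 7 of 391 cells. Nkx2-1 had a smaller share in each library, and Ager in irradiated WT. These shares come from 22, 24 and 43 Areg-positive cells and were computed after other values had been seen.

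**Figure D3:**
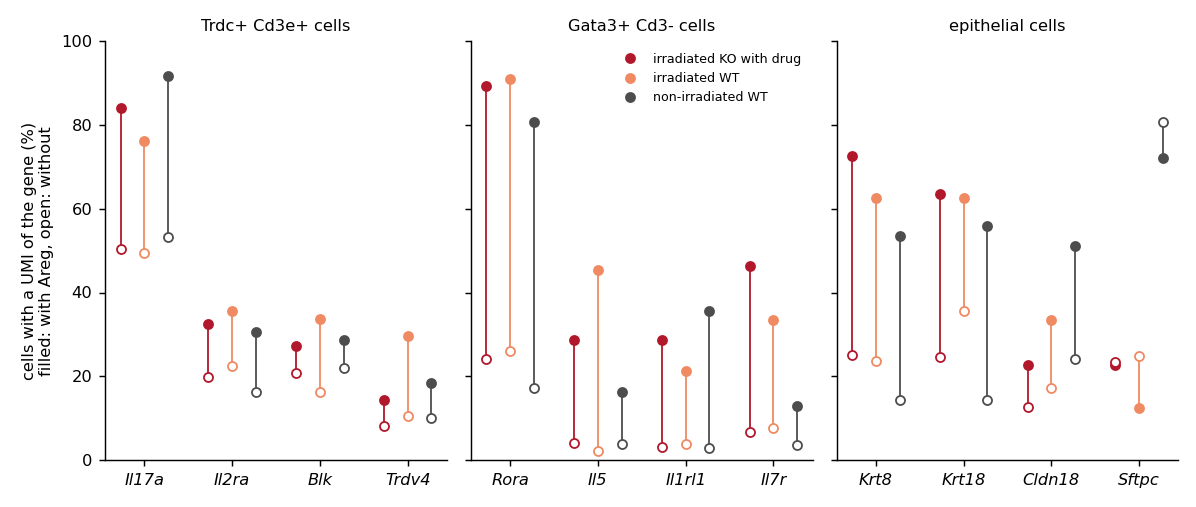
Percent of cells with a UMI of each gene among cells with (filled) and without (open) an Areg UMI, all thinned to 1000 UMIs, for 3 gates and the KO drug, irradiated WT and non-irradiated WT libraries. Filled points lie above open ones for all genes drawn except Sftpc in epithelial cells, with Rora in the Gata3 gate at 80.7% to 90.9% against 17.1% to 26.1%.

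Hbegf (chr18:36504927-36515805, minus strand), whose membrane form is also the diphtheria toxin receptor, was highest in epithelial cells. Epithelial cells held it at 241 CPM in the KO drug library, 254 CPM in irradiated WT and 286 CPM in non-irradiated WT, in 35.8%, 46.6% and 49.3% of cells. The ratio was 0.949 (0.851 to 1.06) for KO drug to irradiated WT and 0.889 (0.811 to 0.973) for irradiated WT to non-irradiated WT. In thinned cells the log2 ratio of KO drug to irradiated WT was -0.74 in place of -0.08. Fibroblasts, 9.74%, 7.30% and 30.2% of kept cells, held 14.97%, 14.3% and 36.0% of all Hbegf UMIs. Like Areg, it went with Krt8, found in 72.2% against 26.3%, 61.9% against 25% and 37.5% against 15.3% of thinned Hbegf-positive against Hbegf-negative epithelial cells.

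Fibroblasts held Hbegf at 28.2 CPM in the KO drug library, 46.2 CPM in irradiated WT and 47.7 CPM in non-irradiated WT. The KO drug library was the low one, with a ratio of 0.610 (0.507 to 0.735) to irradiated WT. Pdgfra, the receptor of alveolar fibroblasts, was rarer in Hbegf-positive fibroblasts, at 25% against 44.0%, 27.3% against 46.2% and 16.3% against 40.4% in the 3 libraries. In the Csf1r gate Hbegf was at 45.2, 65.2 and 36.9 CPM, and 51.6%, 85.9% and 34.5% of those UMIs were in Epcam-positive cells. Without Epcam- or Cd3e-positive cells the log2 ratios there were 1.03 for KO drug to irradiated WT and -1.14 for irradiated WT to non-irradiated WT, in place of -0.52 and 0.81, so both directions turned over.

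The Trdc and Gata3 gates held less Hbegf than epithelial cells. Trdc cells had 21.0, 15.7 and 29.1 CPM and Gata3-gated cells 17.6, 21.5 and 62.1 CPM in KO drug, irradiated WT and non-irradiated WT. In the Gata3 gate the irradiated WT level was 0.346 times (0.257 to 0.458) the non-irradiated one. Cells with Ptprc held 30 of 52 KO drug, 31 of 57 irradiated WT and 85 of 394 non-irradiated WT Hbegf UMIs of that gate. The part of the other cells in this ratio was not tested. B cells, as a gauge of free RNA and doublets, held 1.26, 57.1 and 12.4 CPM in 0.915%, 2.4% and 3.64% of cells. In irradiated WT that is above the Trdc, Gata3 and fibroblast levels, so the gauge cannot set those apart from free RNA and doublets. Of the 375 irradiated WT B cells 12 also stood in the epithelial gate, and their part in the value was not tested.

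Ereg, the neighbour of Areg, had most of its UMIs in cells of the fibroblast gate, which held 76.3%, 58.4% and 70.3% of its 405 KO drug, 437 irradiated WT and 637 non-irradiated WT UMIs. Its level there was 32.6 CPM in KO drug, 57.4 CPM in irradiated WT and 12.9 CPM in non-irradiated WT fibroblasts. Irradiated WT was 4.44 times (3.79 to 5.19) non-irradiated WT, and KO drug was 0.567 times (0.479 to 0.672) irradiated WT. A few cells set these sums, since 1 KO drug cell held 126 of 309 UMIs and 1 irradiated WT cell held 136 of 255, against at most 35 of 448 in non-irradiated WT. That KO drug cell, of 92990 UMIs, also held a UMI each of Csf1r and Ptprc and stands in the Csf1r gate too. Without the highest cell of each library, fibroblasts held 65.6% of the Ereg UMIs in KO drug, 39.5% in irradiated WT and 68.6% in non-irradiated WT. Cells with Ptprc held 160 of the 309, 54 of the 255 and 96 of the 448 UMIs in the fibroblast gate. Without the highest cell of each library the irradiated WT and non-irradiated WT levels were 27.1 and 11.9 CPM, which is no longer apart. In the whole gate, 8.02% of irradiated WT and 3.62% of non-irradiated WT cells held an Ereg UMI. In cells of this gate alone the log2 ratio of KO drug to irradiated WT was -1.55 in place of -0.80. The Csf1r gate held Ereg at 47.5, 38.2 and 23.3 CPM, and 126 of its 165 KO drug UMIs were in the 1 cell that stands in both gates.

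In epithelial cells Ereg was at 14.9 CPM in KO drug, 42.3 CPM in irradiated WT and 5.96 CPM in non-irradiated WT, from 44, 106 and 38 UMIs in 12, 10 and 4 cells. Irradiated WT was the highest, 7.09 times (4.85 to 10.6) non-irradiated WT, and the KO drug level was 0.352 times (0.242 to 0.505) the irradiated WT one. Without the highest cell of each library the KO drug and irradiated WT levels were 11.3 and 15.7 CPM. Ereg was nearly missing in lymphocytes where Areg was high, with 1, 2 and 8 UMIs in Trdc cells and 0, 1 and 1 in Foxp3 cells. The 45 Ereg UMIs of KO drug Gata3-gated cells, against 1 in irradiated WT, lay in 4 cells, and none of the 45 was in a cell of that gate alone.

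Nrg1 was highest in epithelial cells, at 36.2 CPM in the KO drug library, 67.0 CPM in irradiated WT and 16.9 CPM in non-irradiated WT, and in 14.2%, 33.1% and 7.37% of cells. Irradiated WT stood 3.96 times (3.09 to 5.09) above non-irradiated WT, and KO drug at 0.541 times (0.420 to 0.693) irradiated WT. With the cells of highest doublet score removed, irradiated WT and non-irradiated WT stood at 67.6 and 7.10 CPM. Among female-type cells the log2 ratio of KO drug to irradiated WT was -0.19 in place of -0.87. The same order held in fibroblasts at lower levels, 7.06, 10.6 and 6.24 CPM. Tgfa followed in epithelial cells at 9.81, 18.3 and 8.93 CPM, from 29, 46 and 57 UMIs, with ratios of 0.535 (0.324 to 0.870) for KO drug to irradiated WT and 2.05 (1.36 to 3.08) for irradiated WT to non-irradiated WT, neither past the 2-fold limit with 5 CPM added. Btc did not follow: epithelial cells held 6.77, 5.98 and 9.87 CPM, and fibroblasts 3.06, 0.901 and 3.73 CPM, the irradiated WT value from 4 UMIs. The Trdc, Foxp3 and Gata3 gates had at most 6 Btc UMIs in any library. Of all Tgfa UMIs, epithelial cells held 13.55%, 28.05% and 25.33% in KO drug, irradiated WT and non-irradiated WT. Fibroblasts held 10.28%, 5.488% and 35.56%, and cells of no gate with a Cd3d, Cd3e or Cd3g UMI held 52.8%, 48.17% and 8.444%.

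Counted together, epithelial cells had 3 of 9 members apart as higher in irradiated WT against non-irradiated WT, Areg, Ereg and Nrg1, with 13.1% of all genes apart, and a median log2 ratio of 0.74 against 0.15 over all genes tested. In KO drug against irradiated WT cells 1 of 8 was apart, Ereg as lower, with 2.56% of all genes apart and medians of -0.25 and -0.02. Fibroblasts had Ereg apart as higher, 1 of 9, in irradiated WT against non-irradiated WT, where 2.40% of all genes were apart. None of 6 was apart in KO drug against irradiated WT fibroblasts, where the background was 1.27%.

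**Figure D4:**
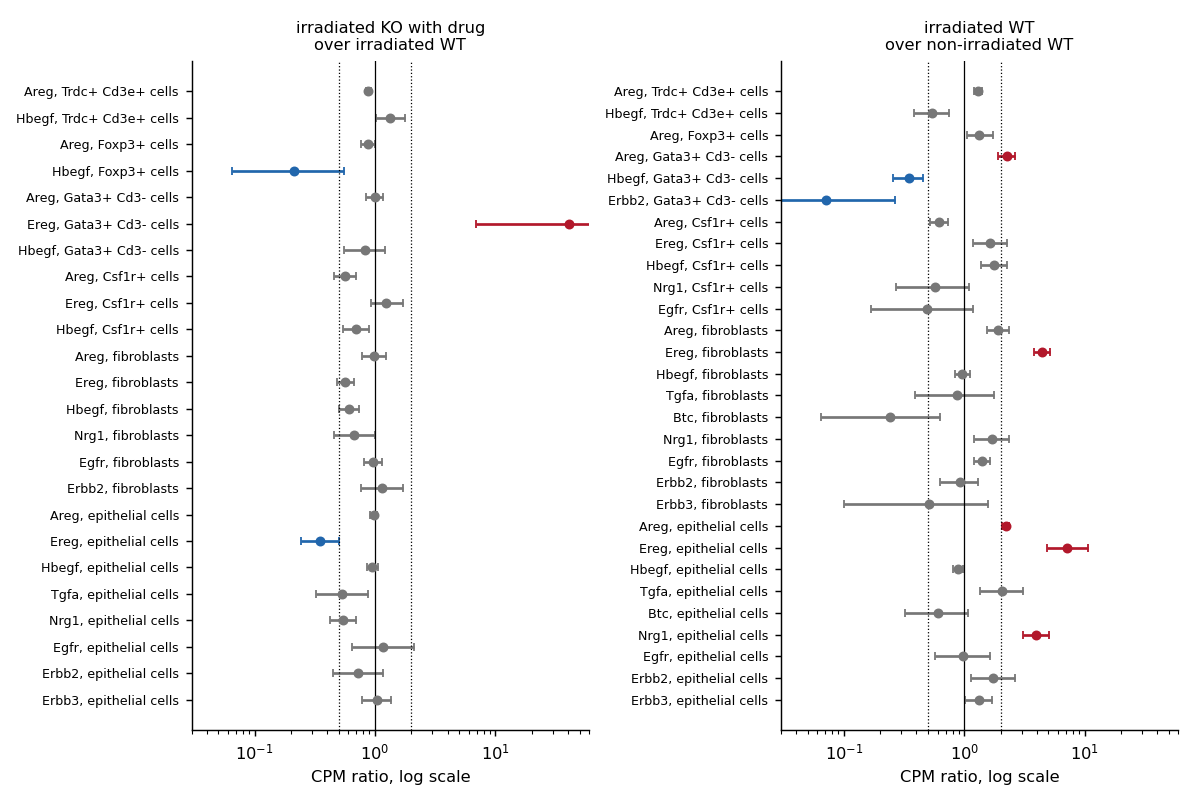
CPM ratio on a log scale with its 95% counting interval for each gene and gate with at least 30 UMIs in the higher library, KO drug over irradiated WT (left) and irradiated WT over non-irradiated WT (right). Red marks genes apart as higher and blue as lower; dotted lines mark 2-fold, and intervals may run past the axis. Ereg and Nrg1 in epithelial cells stand at 7.09 and 3.96 on the right.

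Egfr, the receptor of the first 5 ligands, was read mostly from fibroblasts, which held 89.0%, 80.4% and 93.4% of the 462 KO drug, 250 irradiated WT and 1202 non-irradiated WT Egfr UMIs. Fibroblasts had 43.3 CPM in KO drug, 45.3 CPM in irradiated WT and 32.4 CPM in non-irradiated WT, with a UMI in 27%, 29.7% and 21.8% of cells. The irradiated libraries did not differ beyond counting error, with a ratio of 0.958 (0.807 to 1.14), and irradiated WT was 1.40 times (1.20 to 1.62) non-irradiated WT. Epithelial cells held 10.2, 8.77 and 8.93 CPM and the Trdc, Foxp3 and Gata3 gates 0.377 to 7.59 CPM. Thinned Egfr-positive fibroblasts carried Pdgfra in 64.7% against 42.7% of KO drug, 33.3% against 46.4% of irradiated WT and 46.9% against 39.3% of non-irradiated WT cells, with no common direction.

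The partner receptors differed in place. Erbb3 was epithelial, at 38.6 CPM in KO drug, 37.5 CPM in irradiated WT and 28.2 CPM in non-irradiated WT, against 0.738, 0.675 and 1.33 CPM in fibroblasts. The epithelial ratios were 1.03 (0.777 to 1.37) and 1.33 (1.02 to 1.71). Erbb2 was shared, at 11.8, 16.3 and 9.40 CPM in epithelial cells and 9.49, 8.33 and 9.07 CPM in fibroblasts. In the Gata3 gate Erbb2 had 5 UMIs in KO drug, 2 in irradiated WT and 67 in non-irradiated WT, and 4 of the 67 were in cells with Ptprc.

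**Figure D5:**
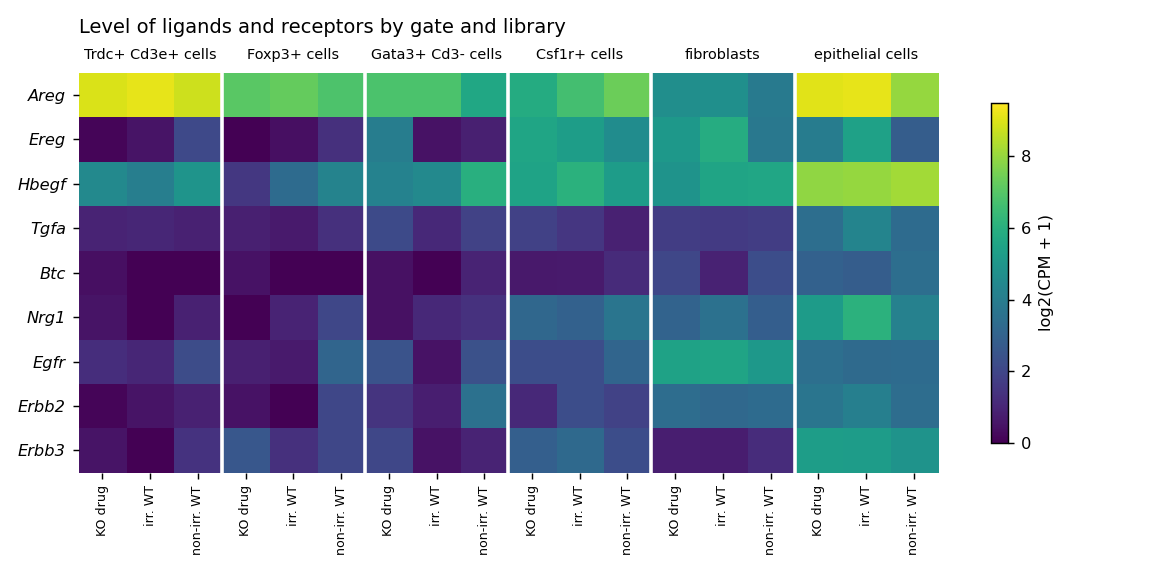
Level of the 9 genes as log2 of CPM with 1 CPM added, by gate and library, KO drug left and non-irradiated WT right within each gate. Areg stands at its highest in Trdc and epithelial cells at 254 to 572 CPM, Hbegf is highest in epithelial cells at 241 to 286 CPM, Egfr in fibroblasts at 32.4 to 45.3 CPM and Erbb3 in epithelial cells at 28.2 to 38.6 CPM.

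Shedding and feedback genes of the pathway were measured in the cells that hold the receptors. The counts below stand beside 13.1% of all 9672 genes apart in irradiated WT against non-irradiated WT epithelial cells, 639 higher and 627 lower. In epithelial cells 1 of 7 shedding genes was apart, Adam8 at 57.0 CPM in irradiated WT against 12.5 CPM in non-irradiated WT, and Adam10, a protease that sheds betacellulin, was at 41.1 against 24.6 CPM. The list median was 0.55, against 0.15 over all genes. Of 21 adaptors and feedback genes 2 were lower there, the inhibitors Spry4 at 3.19 against 12.7 CPM and Spry1 at 43.8 against 112.7 CPM, with a median of -0.03. The EGFR response list had 1 of 7 higher and 2 lower, Egr1 at 649 against 1735 CPM and Etv5 at 57.0 against 152 CPM. The median of that list was 0.34, against 0.15 over all genes. Egr1 also belongs to the immediate-early list, of which 6 of 12 were lower. The kinds of epithelial cells differed between these libraries, and the part of that in these values was not tested.

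In fibroblasts none of 21 adaptors and feedback genes and none of 7 response genes was apart in either comparison, beside 1.27% and 2.40% of all genes. Errfi1, an inhibitor that binds EGFR, was at 145 CPM in KO drug, 212 CPM in irradiated WT and 112.5 CPM in non-irradiated WT fibroblasts. Egr1 followed the same order at 892, 1768 and 1045 CPM. The response list had a median log2 ratio of -0.28 in KO drug against irradiated WT, beside 0.05 over all genes tested, and of 0.14 in irradiated WT against non-irradiated WT, beside -0.02. Of the other EGF family (Egf, Epgn, Nrg2, Nrg3, Nrg4, Erbb4) only Nrg2 reached 30 UMIs in fibroblasts, at 30.8, 35.6 and 33.9 CPM. In KO drug against irradiated WT epithelial cells no shedding gene of 7, no adaptor of 17 and no response gene of 7 was apart, beside 2.56% of all genes, with list medians of -0.25, -0.19 and -0.09.

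Across 20 profiles of a gate in a library, the genes most like Areg by Pearson r of log2(CPM + 5), among 9861 genes, were Retreg1 (0.93), Ahcyl2 (0.89), Wdyhv1 (0.87), Hook2 (0.86) and Prps1 (0.84). Those most like Hbegf were Atp11a (0.95), Abca3 and Slc12a2 (0.94 each), and Fasn and Magi3 (0.93 each). Egfr was closest to Col4a5, Smtnl2 and Echdc2 (0.98 each) and to Bmpr1a and Fzd1 (0.97 each). The profiles share libraries and some cells, so r describes them and is given with no p.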

How the data were processed

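The deposited files hold UMI counts per gene and barcode for 3 lung libraries, 1 per group, not normalized by the authors. The file headers give software version 3.1.0 without naming it, the build is mm10 per the submitters' processing notes, and the aligner is not given in the sources used here. Every listed barcode has at least 500 UMIs. Kept cells had 250 genes or more and 15% or less of their UMIs from 13 mitochondrial genes, which left out 12.5% of KO drug, 18.1% of irradiated WT and 15.5% of non-irradiated WT barcodes. Gates needed at least 1 UMI of a gate gene, a Col1a1 and Col1a2 sum of at least 2, or an Ms4a2, Mcpt8 and Cpa3 sum of at least 3. Doublets were kept, since the choice of cells was given, and Scrublet's highest scores (0.8% per 1000 barcodes, 893, 329 and 1622 cells) were removed as an alternative. These were 9.03%, 5.67% and 12.4% of kept cells, while Scrublet's automatic threshold called only 216, 3 and 872 cells as doublets.

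UMIs were summed per gate and library as CPM. A gene was apart at a 2-fold CPM ratio with 5 CPM added and 30 UMIs in the higher library, in gates with 50 cells in both libraries; log2 ratios have 1 CPM added. No group test was possible with 1 library per group. A count of 0 is bounded by 3 UMIs. Co-detection and thinned shares used 1000 UMIs per cell (seed 1), leaving out shallower cells: 0, 2 and 0 of the Trdc gate, 13, 1 and 13 of the Gata3 gate and 1, 1 and 14 epithelial cells in KO drug, irradiated WT and non-irradiated WT. Genes named are the 9 members, the 2 members of each list described with the largest log2 ratio, and the 5 genes most like Areg, Hbegf and Egfr. Epithelial and fibroblast co-detection, marker genes within gates, sex types and second-gene shares were chosen after values were seen. The members and lists were chosen with earlier results of these data known. The 2-fold rule was tested on simulated counts. Tools were scanpy 1.11.5 (Scrublet), scipy 1.17.1 (intervals), pandas 2.3.3, numpy 2.4.6 and matplotlib 3.10.9 under python 3.11.15.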

Additional observations from a re-analysis of the deposited data

Results flagged for a closer look

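Cells outside every gate that held a Cd3d, Cd3e or Cd3g UMI, T cells by that gene alone, carried Areg above the B-cell level in each library. Areg was at 92.1 CPM in the KO drug library, 107 CPM in irradiated WT and 58.1 CPM in non-irradiated WT, against 1.26, 18.4 and 3.21 CPM in B cells. They were looked at because they are part of no comparison above, and they held 27.6%, 22.8% and 14.1% of all Areg UMIs. Among those with an Il17a UMI, Areg stood at 391, 372 and 273 CPM in the same order, and among those with Cd8b1 at 8.86, 26.6 and 8.28 CPM. Those with Trdc but no Cd3e, or with the Trdc-gate markers Tcrg-C1 or Cd163l1, held Areg at 392, 341 and 373 CPM. They carried 1805 of the 2892 KO drug, 873 of the 1622 irradiated WT and 386 of the 669 non-irradiated WT Areg UMIs of these ungated cells. The irradiated WT B-cell value comes from 40 UMIs in 1 cell.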

How the results depend on the processing

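Of 623 values over 54 log2 CPM ratios and 13 alternatives, 497 lay inside the counting interval of the value reported, and 12 of 43 results beside the main 11 had every value inside it. Areg in Trdc cells, irradiated WT over non-irradiated WT (0.38), was 0.09 without the highest doublet scores, 0.49 in female-type cells, 0.21 thinned, 0.27 with equal weight per cell and 0.54 without the highest cell. KO drug over irradiated WT (-0.18) was -0.12 without the highest doublet scores and 0.07 in female-type cells. In Foxp3 cells irradiated WT over non-irradiated WT (0.42) was -0.55 in cells of 1 gate only and -0.11 in female-type cells, and KO drug over irradiated WT (-0.19) was 0.49, 0.28, 0.19 and 0.03 in cells of 1 gate only, in female-type cells, thinned and with equal weight. In the Gata3 gate the first ratio (1.16) was 0.79 with stricter gates, 0.88 in cells of 1 gate only, 1.49 in female-type cells, 0.91 thinned, 0.58 with equal weight and 0.14 with Ptprc, and the KO drug ratio (-0.01) was 0.52 with stricter gates and -0.26 thinned. Hbegf in Csf1r cells, irradiated WT over non-irradiated WT (0.81), was 1.81 with stricter gates, 1.40 in cells of 1 gate only, 0.03 thinned, -0.13 with equal weight and -1.14 without Epcam or Cd3e. KO drug over irradiated WT (-0.52) was -0.07, -0.15 and 1.03 in cells of 1 gate only, with equal weight and without Epcam or Cd3e. Egfr in fibroblasts, KO drug over irradiated WT (-0.06), was -0.32 thinned.

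Called directions turned over for Ereg, KO drug over irradiated WT: in the Gata3 gate (3.56) it was -0.49 in cells of 1 gate only and -1.69 thinned, and in epithelial cells (-1.44) it was 0.29 thinned, from 4 and 2 UMIs. Areg in epithelial cells, irradiated WT over non-irradiated WT (1.14), was under 2-fold with stricter gates (0.98), median-of-ratios scaling (0.87) and without the highest cell (0.90). The cause of these changes was not tested. Dropping the highest cell, requiring Ptprc and excluding Epcam or Cd3e were chosen after seeing the data. No paired analysis was possible because each group has 1 library. Depth limits Tgfa, Btc, Erbb2 and the lymphoid receptors, most with under 30 UMIs in a gate.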
